A study of Mus musculus with 2 samples.

Results

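This account describes 10 genes of C-type lectin receptors in PDGFRα+ cells of mouse inguinal fat: Cd209a, Cd209b, Cd209d, Cd209f and Cd209g, the Clec4 genes Clec4b1, Clec4n, Clec4d and Clec4e, and Clec10a. They are 10 of the 19938 genes that a probe set of the array names alone. Each was represented by 1 probe set, the 10 probe sets each named a single gene, and none of them had to be set aside for naming several. The gene identifiers of all 10 led to the same symbol in RefSeq.

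Expression was measured on 2 microarrays, 1 per group. Both groups were female mice aged 6 weeks that received doxycycline at postnatal day 1. The control array held RNA of mice with floxed Sox9, and the other that of Sox9 PreASKO mice, in which Sox9, a transcription factor best known from cartilage, is the targeted gene. What drives the deletion in the PreASKO mice is not given in the sources used here. The cells were sorted from the stromal vascular fraction, the non-adipocyte cells that collagenase frees from this subcutaneous fat, with an antibody to PDGFRα, a growth factor receptor carried by fibroblasts and by precursors of adipocytes. Each array held RNA pooled from 3 mice according to the series' design text, so there is no replicate, error or test for any difference given here. Values are RMA values, the deposited summary of each probe set, taken as log2, and each difference is PreASKO minus floxed. A difference of 0.585 is 1.5-fold, the limit the series names. Values of different probe sets are not read as relative amounts of RNA, since probes differ in how well they bind.

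C-type lectin receptors bind sugars on microbes and on the body's own glycoproteins, most of them with the help of calcium, and are made mainly by macrophages and dendritic cells. The Cd209 genes are the mouse relatives of human DC-SIGN and bind glycans rich in mannose or fucose. Clec4b1 (DCAR), Clec4n (dectin-2), Clec4d (MCL) and Clec4e (Mincle) lie together in a gene cluster, and their proteins signal through the Fc receptor gamma chain to the kinase Syk and the adaptor Card9. Clec10a (MGL1, CD301a) binds galactose-type sugars and is a common marker of macrophages and dendritic cells of connective tissue and fat.

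The promoters of 8 of the 10 genes were matched by gene symbol in a RefSeq table of build GRCm38.p6, as windows of 300 bases from 250 before the transcription start to 50 from it onward. Among the 28 pairs of these windows 1 pair stood out by shared sequence, Cd209f and Cd209g, which is why both are shown. Capitals mark the longest run of bases identical in both, 180 bases. The next longest shared run of any pair, between Cd209a and Cd209b, was 17 bases.
Cd209f promoter, chr8:4105715-4106014, minus strand: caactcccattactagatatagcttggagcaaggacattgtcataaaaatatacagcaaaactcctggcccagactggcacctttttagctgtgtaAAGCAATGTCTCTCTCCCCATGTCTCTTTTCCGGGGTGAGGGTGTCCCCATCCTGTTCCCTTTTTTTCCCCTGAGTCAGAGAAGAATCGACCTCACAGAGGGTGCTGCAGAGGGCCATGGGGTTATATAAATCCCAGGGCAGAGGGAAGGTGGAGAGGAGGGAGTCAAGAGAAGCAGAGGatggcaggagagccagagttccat
Cd209g promoter, chr8:4134486-4134785, plus strand: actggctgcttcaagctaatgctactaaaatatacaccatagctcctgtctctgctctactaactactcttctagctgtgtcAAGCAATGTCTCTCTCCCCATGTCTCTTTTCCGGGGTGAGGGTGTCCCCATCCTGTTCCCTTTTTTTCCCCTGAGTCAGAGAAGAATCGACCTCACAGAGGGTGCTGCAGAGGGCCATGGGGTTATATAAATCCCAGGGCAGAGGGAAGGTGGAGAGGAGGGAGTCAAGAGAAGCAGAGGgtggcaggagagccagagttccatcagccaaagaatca
Set side by side at the offset of 14 bases that aligns this run, the windows of Cd209f and Cd209g were identical at 238 of 286 positions, or 83.2%. The run ended at base 25 after the annotated start in Cd209f and at base 11 in Cd209g, so that it takes in the first transcribed bases of each. Sequence shared by such close copies is one way in which probes of 1 gene can also bind RNA of another. The sequences of the array's probes were not used here, so how much signal the probe sets of these genes share was not tested. No accession was listed for more than 1 of the 10 probe sets, which describes the annotation and does not measure shared binding.

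The promoters of Clec4b1, Cd209a and Cd209d are shown because these 3 genes had the highest differences among the members above background. Capitals mark GAGGAA and AGGAAG, letters that belong to the binding site of PU.1, a transcription factor of the ETS family that macrophages and dendritic cells depend on. Both strands were searched, and the motifs overlap where GAGGAAG occurs.
Clec4b1 promoter, chr6:123049712-123050011, plus strand: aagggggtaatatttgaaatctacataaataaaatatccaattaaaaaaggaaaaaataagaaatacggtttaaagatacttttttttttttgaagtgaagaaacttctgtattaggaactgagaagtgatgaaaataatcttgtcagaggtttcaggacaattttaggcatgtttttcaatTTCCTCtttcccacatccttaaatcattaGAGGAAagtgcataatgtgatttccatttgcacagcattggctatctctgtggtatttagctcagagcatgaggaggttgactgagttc
Cd209a promoter, chr8:3748935-3749234, minus strand: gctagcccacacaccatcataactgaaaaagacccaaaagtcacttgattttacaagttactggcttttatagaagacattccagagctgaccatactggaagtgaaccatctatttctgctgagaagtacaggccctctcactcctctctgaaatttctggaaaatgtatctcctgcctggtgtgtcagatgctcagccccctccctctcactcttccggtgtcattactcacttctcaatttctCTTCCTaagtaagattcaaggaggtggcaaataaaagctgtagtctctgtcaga
Cd209d promoter, chr8:3878450-3878749, minus strand: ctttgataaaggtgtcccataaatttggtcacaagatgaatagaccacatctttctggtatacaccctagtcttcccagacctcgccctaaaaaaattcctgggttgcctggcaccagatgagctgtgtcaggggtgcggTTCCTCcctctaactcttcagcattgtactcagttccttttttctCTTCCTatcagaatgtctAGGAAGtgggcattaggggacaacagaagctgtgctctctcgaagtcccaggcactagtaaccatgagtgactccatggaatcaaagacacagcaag
GAGGAA occurred in 4 of the 8 member promoters, those of Clec4b1, Clec4d, Clec4e and Cd209d, and in 28.3% of all 32851 promoters in the table. AGGAAG occurred in 4 as well, those of Cd209a, Cd209b, Cd209d and Clec4d, and in 35.4% of all. At least 1 of the motifs was in 6 of the 8 member promoters and in 46.0% of all promoters, so motifs this short are common in any promoter window. A match describes the letters and is not a measured binding site.

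Above-background signal was the first question, because the array gives a value for silent genes too. The 1027 olfactory receptor genes named by probe sets of 1 gene were taken as silent in these cells, and their 95th percentile, 4.64 in the floxed and 4.47 in the PreASKO array, served as the mark of background, with the higher value used for both. The stricter 99th percentile was 5.43. Of the 10 lectin genes, 7 lay above background on both arrays, where 55.2% of all genes did. Clec4n, Clec4d and Clec4e lay below it on both arrays. Above the stricter mark on both arrays were 6 of the 10, and Clec4b1 missed it with a floxed value of 5.34. Cd209d, Cd209f, Cd209g and Clec10a exceeded the highest value of any olfactory receptor gene, 6.92, on both arrays. The share of all genes above the 99th percentile or the highest olfactory receptor gene was not computed. The counts at these marks therefore only describe the members.

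**Figure D1:**
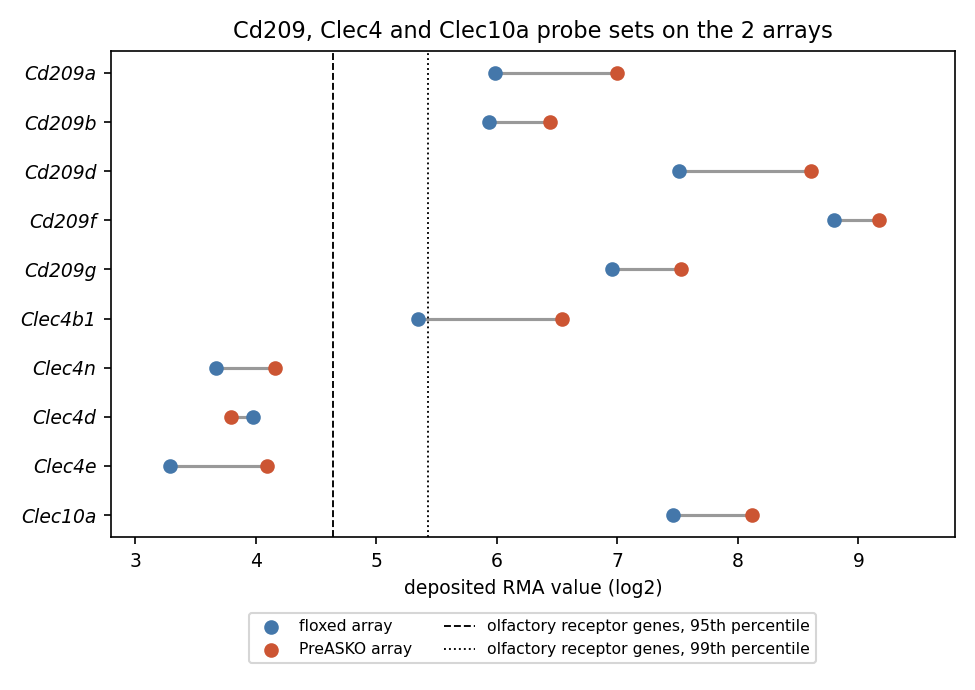
Deposited RMA values (log2, horizontal axis) of the 10 lectin genes on the floxed and the PreASKO array, 1 point per array. Vertical lines mark the background at the 95th (4.64) and 99th (5.43) percentile of silent genes, and 7 genes lie right of the first line on both arrays while Clec4n, Clec4d and Clec4e lie left of it.

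Of the 10 genes 9 had the higher value in the PreASKO array, as did 48.2% of all genes. At the 1.5-fold limit 5 were higher, Clec4b1, Cd209d, Cd209a, Clec4e and Clec10a, and none was lower. Over all genes 1.66% were 1.5-fold higher and 1.98% lower. The 10 genes were chosen by name with the values and differences of these same 2 arrays known, so the counts describe them and support nothing. Clec4e, at 3.29 and 4.09, was below background on both arrays, which leaves 4 members past the limit with measured signal. Over the genes above background on both arrays, 1.33% were 1.5-fold higher and 0.826% lower, and among the olfactory receptor genes 7.01% passed the limit in either direction. At 2-fold 3 of the 10 were higher, Clec4b1, Cd209d and, only just, Cd209a, as were 0.11% of all genes. The median difference of the 10 genes was 0.61, against 0 over all genes. Just inside the limit stood Clec10a with 0.66, and just outside Cd209g with 0.57.

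**Figure D2:**
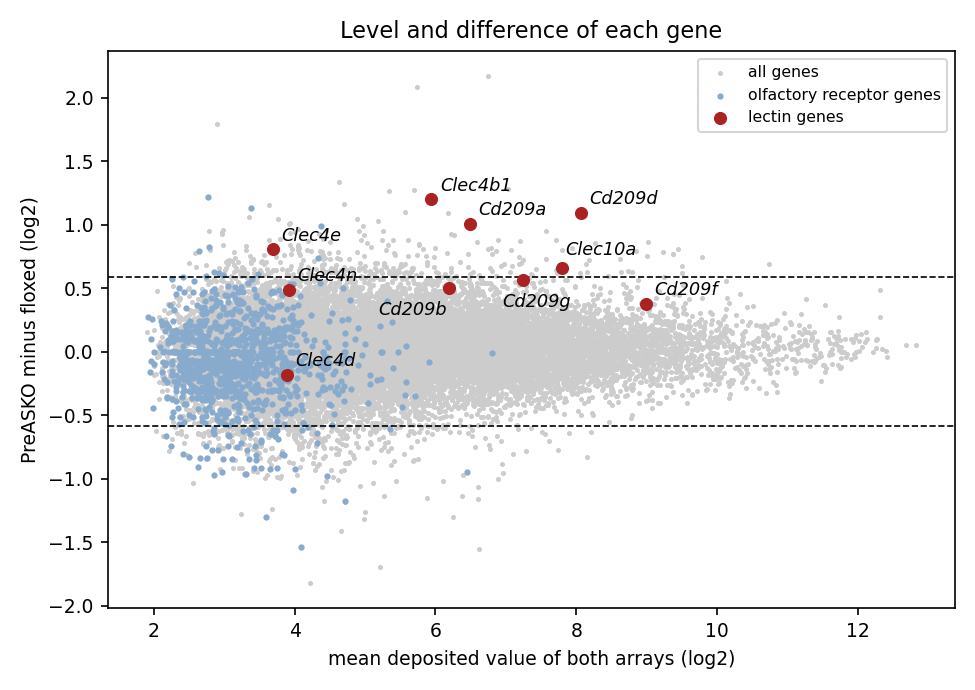
Difference PreASKO minus floxed (log2) against the mean of both arrays (log2) for all 19938 genes, with the olfactory receptor genes and the 10 lectin genes marked and dashed lines at 1.5-fold. Cd209d, Cd209a and Clec4b1 lie near the upper edge of the cloud, and Clec4n, Clec4d and Clec4e lie among the olfactory receptor genes.

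Cd209a encodes the mouse protein called DC-SIGN or CIRE, a receptor of dendritic cells and of cells that develop from monocytes. It was at 5.99 in floxed and 7.00 in PreASKO, 2.01-fold higher. Among genes above background on either or both arrays, 14, Cd209a included, had a difference at least as high. In the floxed array 2 of the 1027 olfactory receptor genes had a higher value than Cd209a, and in the PreASKO array none did. Cd209d, also called SIGNR3, was at 7.51 and 8.61, 2.14-fold higher. No olfactory receptor gene reached its value on either array, so this fold rests on signal clear of background on both sides. Among genes above background on either or both arrays, 10, Cd209d included, had a difference at least as high as that of Cd209d.

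The other Cd209 members were higher by less than 1.5-fold. Cd209b encodes SIGNR1, a receptor for microbial polysaccharides on macrophages of the spleen and the peritoneum. Its values were 5.94 and 6.44, a difference of 0.50, and 3 olfactory receptor genes were brighter in floxed and 1 in PreASKO. Cd209g was at 6.96 and 7.53, a difference of 0.57. Cd209f was at 8.79 and 9.17, a difference of 0.38, the lowest among the 7 members above background. Cd209f and Cd209g, the pair with the shared promoter run, thus had differences of 0.38 and 0.57, and without replicates it cannot be said whether these differ.

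The Cd209 genes lie in a row on chromosome 8, where their differences ranged from -0.11 to 1.09. In the order of the RefSeq table the differences were 1.01 for Cd209a, -0.11 for Cd209e, 1.09 for Cd209d, 0.50 for Cd209b, 0.82 for Cd209c, 0.38 for Cd209f and 0.57 for Cd209g. Cd209e and Cd209c are further copies of the family and are not among the 10. Cd209e was at 4.94 and 4.83, above background on both arrays and lower in PreASKO by 0.11, between neighbours that were higher by 1.01 and 1.09. Cd209c was at 4.67 and 5.49, with a floxed value barely above the mark of 4.64. Cd209e was dim as well, with 27 olfactory receptor genes brighter in floxed and 30 in PreASKO, and lay below the stricter mark of background on both arrays. Without replicates, its difference of -0.11 cannot establish an opposite sign within the cluster. The other genes of the row each had the higher value in PreASKO.

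Clec4b1 had the highest difference of the 10 genes. Its protein DCAR is an activating receptor that binds mycobacterial glycolipids. The values were 5.34 and 6.54, a difference of 1.20 or 2.30-fold. Among genes above background on either or both arrays, 7, Clec4b1 included, had a difference at least as high. In floxed 11 olfactory receptor genes were brighter, so the floxed value is close to background and the fold is less certain than that of Cd209d. With floxed raised to the stricter mark of 5.43, the difference was 1.12. Clec4b2, the close copy of Clec4b1 in the same cluster on chromosome 6, was below background on both arrays, at 3.29 and 3.30. The signal at the probe set of Clec4b1 was thus not accompanied by signal above background at that of its copy.

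Clec4n, Clec4d and Clec4e encode the receptors dectin-2, which binds fungal mannans, and MCL and Mincle, which bind mycobacterial cord factor. Clec4n was at 3.67 and 4.16, a difference of 0.49. In the floxed array 265 of the 1027 olfactory receptor genes were brighter than Clec4n, and in the PreASKO array 91 were. Clec4d was at 3.98 and 3.80, a difference of -0.18, the only negative one of the 10. Clec4e was at 3.29 and 4.09, and 462 olfactory receptor genes were brighter in floxed and 103 in PreASKO. These 3 genes were not detected above the background of silent genes, so no fold is given for them, including Clec4e with its nominal difference of 0.81.

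Other genes of the same cluster on chromosome 6 were above background. The Clec4a genes encode DCIR receptors and their relatives, several of which are inhibitory. Clec4a1 was at 7.09 and 7.64, Clec4a3 at 6.79 and 7.23 and Clec4a2 at 6.06 and 6.31, with differences of 0.54, 0.44 and 0.26. Clec4a4 was below background at 2.42 and 2.51. In this row of genes, those above background were thus Clec4b1 and 3 of its Clec4a neighbours, and each was higher in PreASKO.

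Clec10a was at 7.46 and 8.12, 1.58-fold higher, and no olfactory receptor gene was brighter on either array. Mgl2 encodes the closely related receptor CD301b, a marker of a dendritic cell subset, and is not among the 10. It was at 7.84 and 8.47, a difference of 0.63 beside the 0.66 of Clec10a. Both genes were past 1.5-fold, and how much probe signal these copies share was not tested.

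The members can be set beside the other C-type lectin genes of myeloid cells, a list of 26 genes that all had a value. Of these 17 were higher and 9 lower in PreASKO, 3 of them 1.5-fold higher and 2 1.5-fold lower, with a median of 0.11. Above background on both arrays were 13, with a median of 0.28 beside 0.66 for the 7 members above background, and over all 26 the median was 0 with dim values raised to background. Of the 13, 12 had the higher value in PreASKO, where 53.4% of all genes above background did. The genes of this list of 26 past 1.5-fold with signal above background were Cd209c and Mgl2. Clec5a was 1.5-fold higher, and Clec9a and Cd207, markers of dendritic cell subsets, were 1.5-fold lower, but these 3 lay below background on both arrays. Mrc1, the mannose receptor of macrophages, was at 9.93 and 10.2 and Clec7a, the beta-glucan receptor dectin-1, at 5.05 and 5.14. Their differences of 0.22 and 0.09 were lower than that of each of the 7 members above background. Others of the 13 overlapped the members. Besides Cd209c and Mgl2, Clec4a1 at 0.54, Clec12a at 0.45 and Clec4a3 at 0.44 had higher differences than Cd209f at 0.38.

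**Figure D3:**
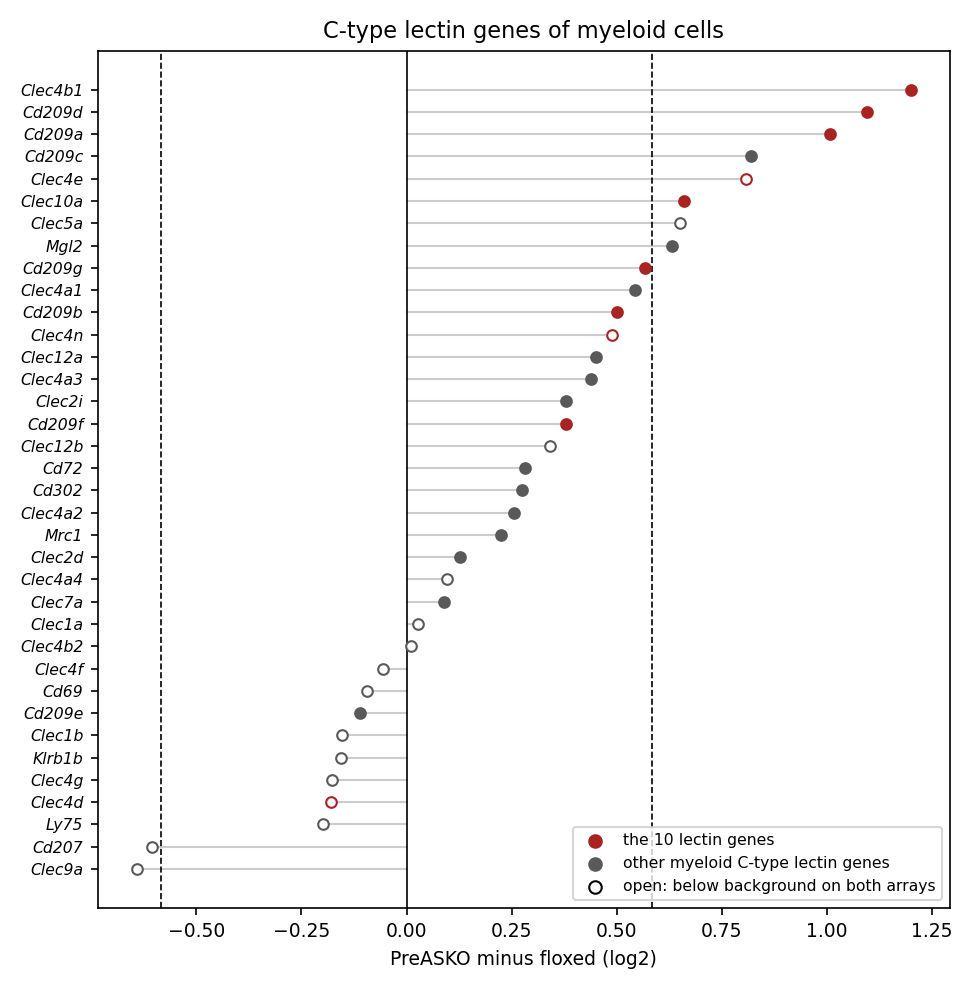
Difference PreASKO minus floxed (log2, horizontal axis) of the 10 lectin genes and of 26 other C-type lectin genes of myeloid cells, sorted, with open points for genes below background on both arrays and dashed lines at 1.5-fold. Clec4b1, Cd209d and Cd209a stand at the top with differences of 1.01 to 1.20, and the 2 genes past the lower limit, Clec9a and Cd207, are open points.

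C-type lectin genes of stromal cells and of body fluids were mostly lower in PreASKO. Of 23 measured genes 5 were higher and 16 lower, none was 1.5-fold higher, and the median was -0.13. Cd248, a receptor of fibroblasts and pericytes, was at 11.4 and 11.3, a difference of -0.07. The 1 gene past the lower limit, Sftpd, was below background. These 5 of 23 stand beside 17 of 26 for the lectin genes of myeloid cells and 9 of 10 for the members, with no test of the difference. All of these counts include genes below background. Above background on both arrays, 2 of 14 stromal and soluble genes, 12 of 13 myeloid ones and 7 of 7 members were higher.

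Partners of the Clec4 receptors were described by a list of 21 measured genes of the Fc receptor gamma chain, Syk and Card9 pathway. Of these 14 were higher and 6 lower, with a median of 0.12, and 2 were 1.5-fold higher. Fcer1g, the gamma chain that carries the signal of Clec4b1, was at 8.94 and 9.53, a difference of 0.59. Tyrobp, the adaptor DAP12, was at 8.99 and 9.76, a difference of 0.77. Downstream, Syk was at 6.04 and 6.08, a difference of 0.04, and Card9 was below background at 4.38 and 4.49. The membrane adaptors thus differed by 1.5-fold and the kinase did not.

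Genes that this pathway can induce had a median of 0.13 over 21 genes, 14 of them higher and 5 lower. Il1b, the cytokine interleukin-1 beta, was at 5.05 and 6.33, a difference of 1.28. In floxed 22 olfactory receptor genes were brighter than Il1b, so its floxed value is close to background and its fold is uncertain. Il1a was below background in floxed (4.53) and at 5.13 in PreASKO, at least 1.41-fold higher. None was 1.5-fold lower, and Egr1, an immediate early gene, was at 11.4 on both arrays.

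Markers of macrophages were higher in the same array as the lectin genes. Of 11 measured macrophage markers 11 were above background and higher in PreASKO, by 0.25 to 0.75 with a median of 0.42. Their summed level, the sum of the values on the linear scale, was 5503 in floxed and 7544 in PreASKO. Lyz2, lysozyme, differed by 0.42 and C1qa, a complement gene, by 0.75. Markers of resident perivascular macrophages were likewise higher in 11 of 11, by 0.22 to 0.79, and their summed level was 4833 and 6516. Among them Pf4 differed by 0.42, Folr2 by 0.62, Cbr2 by 0.67 and Ccl8 by 0.79. The 5 genes shared by leukocytes were all higher, with a summed level of 1283 and 1839, Ptprc (CD45) by 0.47, Laptm5 by 0.28, Coro1a by 0.78 and Cd53 by 0.86. The part of these cells in the differences of the lectin genes was not tested. More cells of a type and more RNA per cell cannot be told apart in pooled RNA.

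Set against these markers, the 7 lectin genes above background had differences from 0.38 to 1.20. Clec4b1, Cd209d and Cd209a had differences above that of every macrophage, perivascular macrophage and leukocyte marker. They exceeded the macrophage median by 0.78, 0.68 and 0.59. Clec10a exceeded it by 0.24, Cd209g by 0.15 and Cd209b by 0.08, and Cd209f differed from it by -0.04 (log2). With 1 array per group these excesses have no error, and the floxed value of Clec4b1 was close to background. The members were chosen with these differences known, so the excesses describe them and support nothing.

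Markers of other cell types that can make these receptors were in part below background. Of 12 measured markers of conventional dendritic cells 6 were higher and 6 lower, with a median of 0.06 and a summed level of 582 and 653. Above background on both arrays were 7 of them, of which 5 were higher, with a median of 0.22 over these 7. Flt3, Itgax, Xcr1, Clec9a and Ciita were below background on both arrays, while Zbtb46 was at 5.20 and 5.44 and Cd86 at 7.33 and 7.81. Monocyte markers had 5 higher and 3 lower of 8, with a summed level of 6136 and 5991. Ccr2 differed by 0.62 and Cx3cr1 by -0.60. The sum is mostly that of Fn1, which stromal cells also make and which was at 11.97 and 11.93. Of 10 neutrophil markers 8 were below background on both arrays, S100a8, S100a9 and Ly6g among them, and the summed level was 157 and 179. Csf3r was at 4.68 and 5.12.

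Of 4 plasmacytoid dendritic cell markers 2 were higher, with a summed level of 724 and 649, and the sum is mostly that of Tcf4, which was at 9.25 and 9.03. Siglech, a receptor commonly used to mark these cells, was at 5.48 and 5.91, above background on both arrays and higher by 0.43. Eosinophil and mast cell markers were higher in 2 of 9, with a summed level of 451 and 398, and Mcpt4 differed by -0.15. Lymphocyte markers were higher in 5 of 10, with a summed level of 227 and 249. Cd3e was higher by 0.88, but its floxed value of 4.96 was close to background, with 24 olfactory receptor genes brighter. Other T cell genes of the list did not share this difference. Cd3g differed by 0.12 and Cd8a by 0.13, and Cd3d and Cd4, both below background, by -0.10 and -0.53. Cd79b differed by -0.09, and 6 of the 10 were below background. Endothelial markers were higher in 1 of 7, with a summed level of 1024 and 829, and the sum is mostly that of Pdpn. Kdr differed by -0.69 and Pdpn by -0.38.

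**Figure D4:**
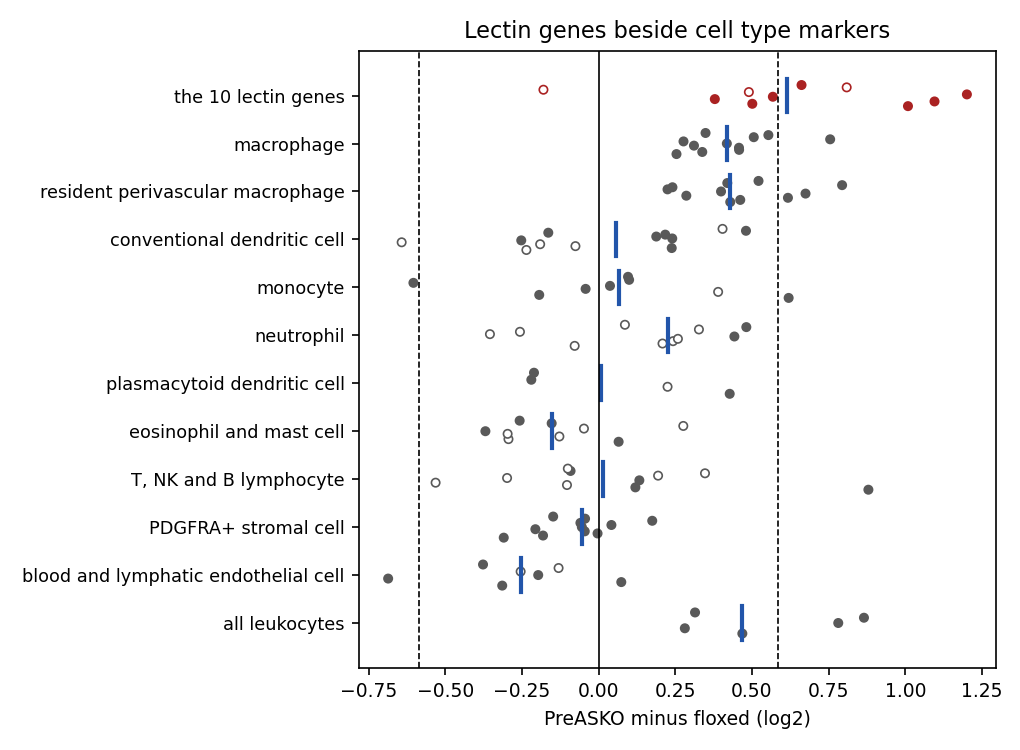
Difference PreASKO minus floxed (log2, horizontal axis) of the 10 lectin genes and of 11 lists of cell type markers, 1 point per gene, open where a gene is below background on both arrays, with the median as a blue bar and dashed lines at 1.5-fold. The medians are 0.61 for the lectin genes, 0.42 for macrophage markers and 0.06 for conventional dendritic cell markers.

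Stromal markers were looked at because of the labelled sort. No unsorted cells were measured, so these markers cannot show how well the sort enriched PDGFRα+ cells. All 11 measured markers of PDGFRα+ stromal cells were above background on both arrays, with a median of -0.05 and a summed level of 20918 and 20517. Pdgfra itself was at 9.86 and 9.55, a difference of -0.31, and Dcn was at 12.2 on both. Sox9, the targeted gene, was at 5.25 and 4.97, a difference of -0.27, which is less than 1.5-fold. Its values were close to background, with 15 olfactory receptor genes brighter in floxed and 22 in PreASKO. Both lay below the stricter mark of background, so the difference cannot show how much Sox9 RNA was lost. Whether the Sox9 probes lie in the deleted part was not examined. The lectin genes above background were thus measured in RNA in which stromal and leukocyte genes were both present.

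By a rule that takes probe values as they stand, the genes closest in pattern to Cd209f, the member with the highest mean value, were found by the Euclidean distance of their values over the 2 arrays. They were Psmb2 (distance 0.06), Pcbp1 (0.08), Dhrs3 (0.09), Cd9 (0.09) and Tnf (0.10). With 2 arrays such closeness is easily met, and since it sets values of different probes side by side it says nothing of relative amounts of RNA.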

How the data were processed

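The deposited table holds 1 value per probe set for 35556 probe sets on each of 2 arrays, from 1.23 to 13.8. The authors made these values with RMA, per the submitters' processing notes, and no version is given there; RMA corrects background, makes the arrays alike and summarises probes, and it compresses differences of dim genes. That the deposited values are log2 was taken from their range. Array medians were 4.73 (floxed) and 4.71 (PreASKO). The number of arrays limits the precision.

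Genes were assigned from the array's platform annotation: 21789 named 1 gene, 1621 several and 12146 none. The probe set with the highest mean was taken per gene. Members are described at the 1.5-fold limit, with values below the 95th percentile of olfactory receptor genes as background; a fold against such a value is given as "at least", with the value raised to that mark. Alternatives were probe sets naming 1 gene or averaged, centring, loess (span 0.3), quantile normalization, raising or leaving out dim values, and a 2-fold limit.

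The lectin genes, the 4 related lists, the 11 marker lists and the rules were chosen with earlier results of these data known. Of their 203 list entries 14 had no value here. The naming rule took all 10 lectin genes, the 5 genes nearest to the member with the highest mean, and per list the gene with the highest mean and those past 1.5-fold and above background. Other genes named were chosen after their values were seen. A planned comparison of protein sequences was not run. The steps were tested on simulated data. Python 3.11.15, pandas 2.3.3, numpy 2.4.6, statsmodels 0.14.6 and matplotlib 3.10.9 were used.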

Additional observations from a re-analysis of the deposited data

How the results depend on the processing

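The differences of the 10 lectin genes stayed within 0.05 under loess correction and quantile normalization, and none crossed the 1.5-fold limit there. Centring could change nothing, since the median difference over all genes was 0. The choice or averaging of probe sets could not change the lectin genes either, since each had 1 probe set. At 1.5-fold 5 of the 10 were higher, as were 1.66% of all genes. With dim values raised to background or left out, 4 were, since Clec4e dropped out. At a 2-fold limit 3 of the 10 were higher, as were 0.11% of all genes. Of these 3, Cd209a was only just past the limit, at 1.01 as deposited. Under loess correction its difference was 0.98 and under quantile normalization 0.99, both just below 2-fold. On both arrays 7 of the 10 lectin genes lay above the 95th percentile of silent genes, as did 55.2% of all genes. Above the highest olfactory receptor gene lay 4, a count without a share over all genes beside it. Raising dim values to the background mark, at the 95th or the 99th percentile of silent genes, set the differences of Clec4n, Clec4d and Clec4e to 0 by construction. It also set the median of the other myeloid C-type lectin genes (0.11) and of the stromal and soluble ones (-0.13) to 0 at both percentiles, and that of the Syk and Card9 pathway and of its output genes to 0 at the 99th. Keeping only genes above the 95th percentile moved the median of the other myeloid C-type lectin genes to 0.28. Leaving out a replicate was not possible. No paired analysis was possible because neither group holds over 1 array.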

Other observations

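Further immune gene groups, chosen after the first values had been seen, were set beside the lectin genes. Of 12 genes linked to interleukin-4 responses and alternative activation of macrophages, which Clec10a and Mrc1 also mark, 7 were higher and 5 lower in PreASKO, with a median of 0.19. Retnla, a secreted protein of alternatively activated macrophages, was at 10.4 and 11.1, a difference of 0.69, and the chemokine gene Ccl24 was at 7.998 and 8.449. Arg1 and Chil3, further genes of that response, were below background on both arrays. With values raised to background the median was 0.

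Receptors that sense microbes or take up debris by means other than a C-type lectin domain had a median of 0.17 over 24 measured genes, 17 of them higher and 6 lower. Siglec1, the sialic acid receptor CD169 of macrophages, was at 6.76 and 7.63, a difference of 0.88, and was the 1 gene past 1.5-fold. The scavenger receptor gene Msr1 was higher by 0.51 and the RNA sensor gene Tlr7 by 0.48. Tlr4, the receptor for bacterial lipopolysaccharide, differed by -0.09 and Tlr2 by 0.10. The scavenger receptor genes Marco and Stab2 were below background on both arrays.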
